A study of Mus musculus with 14 samples.

Results

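Mouse embryonic stem cells that served as the control of a Dppa5a knockdown (KD_control) were compared with mouse embryonic fibroblasts (MEF). These were 4 RNA-seq libraries, 2 of each kind, out of 14 libraries in 7 groups. The libraries were taken by their group labels, and the gene lists were drawn up with earlier results of these data known. Gene values are FPKM, fragment numbers scaled by transcript length and by the mapped fragments of the library, summed over the loci of a gene symbol. Symbols on chromosomes X and Y were left out, which left 23242 of 24346. Of these, 12891 were tested, since their mean reached 1 FPKM in KD_control or in MEF. The KD_control cells were wild-type stem cells of a line labelled home made, untreated, and what they carried as knockdown control is not stated in the labels. They were grown on inactivated feeder fibroblasts with knockout serum replacement and LIF, and passaged 2 times on gelatin before harvest. The MEF were wild-type, untreated primary embryonic fibroblasts grown in DMEM with 10% serum. A second set of untreated wild-type stem cells (mESC, 2 libraries), with the same culture protocol, is given beside them where it helps to place a value. Neither the sex of the cells nor a link between libraries of equal number is given. The labels do not say whether replicates were separate cultures, and p-values then reflect only how far these libraries lie apart, which may be technical.

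Pluripotent stem cells divide without limit and can form all tissues of the embryo. Their state is held by a network of transcription factors around Pou5f1, Sox2 and Nanog, and in mouse culture by the cytokine LIF. Fibroblasts are mesenchymal cells that secrete and crosslink the collagen matrix of connective tissue and pull on it with actin stress fibres. In bulk RNA, fewer cells of a type and less RNA per cell cannot be told apart.

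The deposited confidence bounds correspond to 22309383 to 25061629 effective fragments in the 4 libraries. Replicates correlated across the tested genes at 0.997 in KD_control and 0.988 in MEF (Pearson, log2 values), and genes are not independent replicates. The KD_control pair differed by more than 2-fold at 0.109% of genes, the MEF pair at 0.504% and the mESC pair at 7.15%. Squared differences between replicates averaged 2.41, 32.7 and 139 times the variance that the bounds imply, so no pair agreed within that noise. The 8 stem cell markers checked summed to 8671 and 9007 FPKM in KD_control and to 0.961 and 0.655 in MEF. The 12 fibroblast markers summed to 18.1 and 18.9 FPKM in KD_control and to 6110 and 5239 in MEF. The 12 macrophage markers summed to 46.4 and 47.8 FPKM in MEF, where Lyz2 stood at 28.1 and 32.6, and to 12.2 and 11.8 in KD_control. The 8 endothelial markers summed to 68.7 and 66.9 FPKM in KD_control and to 2.18 and 2.45 in MEF, and the adhesion molecule Pecam1 gave 60.2 and 58.6 of the KD_control sums. Sums of the chondrocyte and adipocyte lists were highest in MEF, at 54.0 and 45.9 FPKM and at 37.5 and 33.7. Keratinocyte, skeletal muscle, Schwann cell and erythroid lists summed to at most 9.37 FPKM in each library.

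Dppa5a, an RNA-binding protein of pluripotent cells and the target of the knockdown that these libraries control (mm10 chromosome 9, 78367054 to 78368199), had 5126 and 5417 FPKM in KD_control. It was listed at 0 and 0.0871 FPKM in MEF. It was the gene with the widest gap of all, with a log2 difference of 12.30 on the log2(FPKM + 1) scale (SE 0.09; limma adjusted p = 5.3e-06). All differences below are on this scale, KD_control minus MEF, and it understates the change of low genes. Rev1, a scaffold of translesion synthesis, had 10.2 and 10.1 FPKM against 6.45 and 7.44 in MEF (0.49, SE 0.10; limma adjusted p = 0.0084). Polq, the polymerase of microhomology-mediated end joining, had 2.26 and 1.99 and in MEF 2.6 and 2.98 FPKM (-0.28, SE 0.10; limma adjusted p = 0.052) and did not pass the test. Scaling the libraries by median ratios ended the call of Rev1 (0.24, adjusted p = 0.098) and brought Polq past the threshold (-0.47, adjusted p = 0.01). Removing the trend with transcript length described below turned Polq the other way (0.24, adjusted p = 0.065), so its direction depended on the processing.

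The 2 groups differed at most tested genes, and any difference in batch between them cannot be told apart from cell type. In limma's test 10407 of 12891 genes passed at an adjusted p under 0.05, which is 80.7%, with 6276 higher and 4131 lower in KD_control (48.7% and 32%). At this rate a call alone says little about a gene. A second rule asks whether the difference exceeds 2-fold, and 4293 genes passed it, which is 33.3%, with 2618 higher (20.3%) and 1675 lower (13%). The libraries of the 2 groups did not overlap at 91.4% of genes. Differences between -1 and 1 were seen for 52.5% of the tested genes. The outer 5% on each side began at -2.47 and 2.64. Beyond a difference of 5 lay 72 genes that were higher and 127 that were lower. Both MEF libraries listed 369 tested genes at 0, and both KD_control libraries 100. The median difference of all tested genes was 0.30. Scaling by median ratios lowered it to 0.05 and gave 5324 higher and 4946 lower calls, so list medians are to be read against 0.30. Counts of list members called are likewise to be read against 48.7% higher and 32% lower. The differences also went with transcript length, estimated from the width of the deposited bounds: with the genes in 10 groups by length, the median was 0.56 in the shortest and -0.28 in the longest. With the trend removed 10418 genes were called, and Ncl, Rev3l, Synpo2 and Cdkn2d, described below, no longer passed. The loci of 25 genes named here overlap that of another tested gene, and whether strand was used is not given, so their values are uncertain: Acvr2a, Apoa2, Aspn, Atf5, Cbx6, Ccnd3, Ccne2, Chchd10, Col9a3, Ddit3, Dnmt3l, Ercc1, Filip1l, Gli1, Igf2, Igfbp7, Jak1, Mat2a, Nid2, Orc4, Pfkp, Plod3, Rev1, Snrpn and Tagln.

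By size of the gap, the highest genes of KD_control were Dppa5a, Tdgf1, Pou5f1, Upp1, Slc2a3, Utf1, Nanog, Dnmt3l, Apoc1, Elf3, Chchd10 and Calca. Besides pluripotency genes this set holds the glucose transporter Slc2a3, with 1573 and 1569 FPKM against 3.23 and 3.23 in MEF (8.54, SE 0.08; limma adjusted p = 6.3e-06). Chchd10, a mitochondrial protein, had 1123 and 1225 FPKM against 7.98 and 5.73 in MEF. Elf3, an ETS transcription factor of epithelia, had 162 and 162 against 0.0173 and 0, and Calca, the gene of calcitonin and its related peptide, 165 and 171 against 0.0819 and 0.17. The lipoprotein gene Apoc1 stood at 192 and 228 and was listed at 0 in both MEF libraries. In mESC Elf3 had 14.5 and 38.0 FPKM, Calca 5.65 and 9.47 and Apoc1 3.9 and 27.2. These 3 were higher in KD_control than in mESC (limma adjusted p = 0.018, 0.0074 and 0.027), whereas Pou5f1, Utf1 and Dnmt3l did not pass that test. The lowest genes were Acta2, Col1a1, Col1a2, Thbs1, S100a4, Tagln, Igf2, Lox, Col3a1, Postn, Igfbp7 and Tnc, each at 319 FPKM or more in both MEF libraries and at 1.37 or less in both KD_control libraries. They are matrix, contractile and growth factor axis genes, apart from the calcium-binding protein S100a4.

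**Figure D1:**
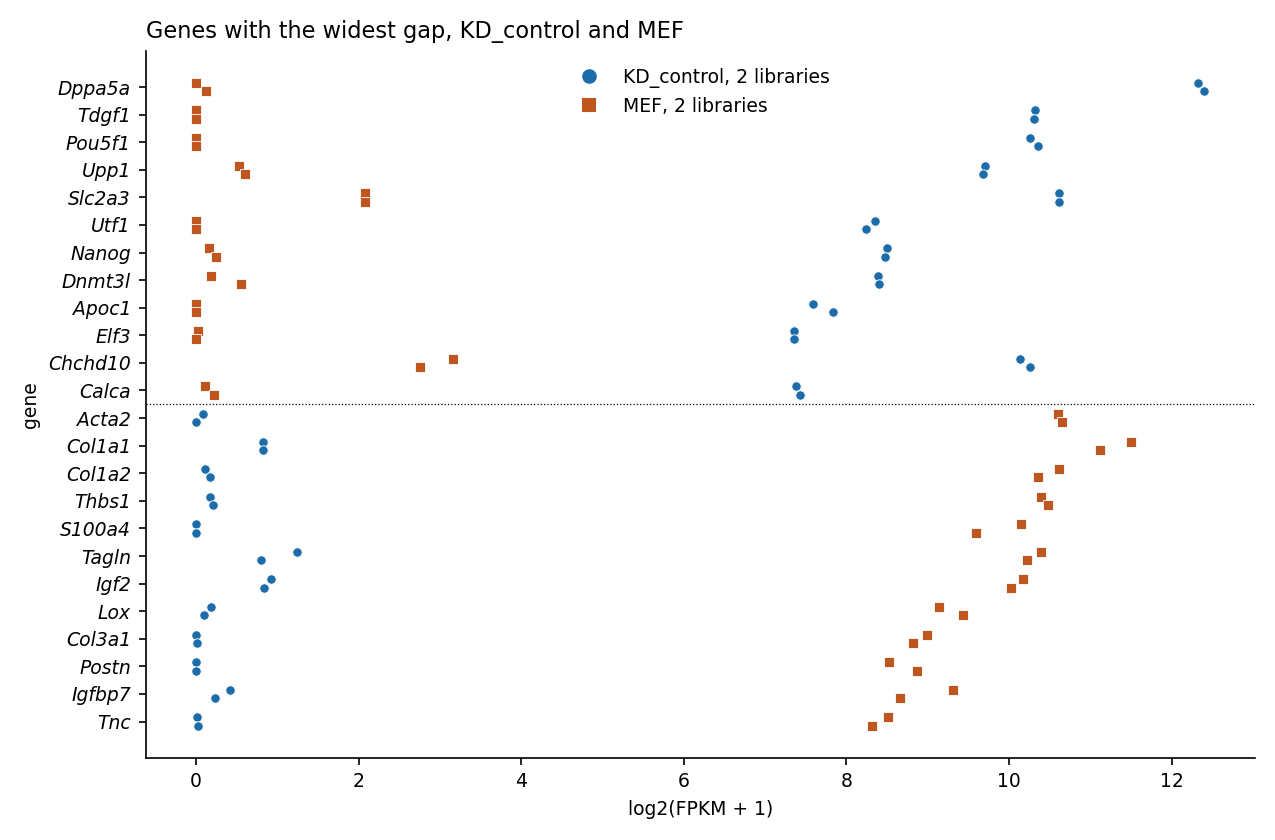
Each row is a gene and each point a library, on an axis of log2(FPKM + 1), for the 12 genes on each side whose gap was widest, provided the higher group averaged 10 FPKM or more. Blue circles are KD_control and orange squares MEF. The groups do not overlap at any of these genes, which is how they were chosen, and the replicates of a gene lie close together beside the gap.

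Pluripotency transcription factors were the first list. Of 22 tested, 21 were higher in KD_control and 0 lower, with 18 past the 2-fold test and a median of 4.10 (3.32 without the 4 genes listed at 0 in both MEF libraries). Pou5f1, the POU factor at the head of the network (chromosome 17, 35506032 to 35510777), had 1228 and 1306 FPKM and was listed at 0 in both MEF libraries. Nanog had 360.3 and 356 FPKM in KD_control and 0.117 and 0.191 in MEF (8.28, SE 0.09; limma adjusted p = 6.6e-06). Sox2 had 178 and 176 against 0.75 and 0.355, and the nuclear receptor Esrrb 145 and 146 against 0.0364 and 0.0226. Not every factor was specific to the stem cells by level. Klf4 had 93.3 and 95.4 FPKM against 22.4 and 17.1 in MEF, and Klf2 had 60.3 and 55.7 against 24.5 and 14.2, so these Kruppel-like factors were present in fibroblasts too. Zfp281, a zinc finger factor, was the member that did not pass, with 8.57 and 8.23 against 9.61 and 11.2, and was called lower under median ratios (-0.52, limma adjusted p = 0.0099).

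Other genes restricted to stem cells gave 25 higher of 25 tested, 23 past the 2-fold test, with a median of 5.33. Of these, 14 were listed at 0 in both MEF libraries, and the median without them was 5.13. Those 14 could enter the test only through KD_control and could only be higher. All 26 listed genes summed to 184 and 224 FPKM in MEF, mostly from Cd9 at 169 and 213. For most members the direction was thus largely set by the filter. Tdgf1, the Nodal co-receptor, had 1273 and 1267 FPKM and Fgf4, a growth factor of the inner cell mass, 86.3 and 84.2, both listed at 0 in MEF. Upp1, which splits uridine, had 837 and 816 FPKM against 0.446 and 0.524. Dnmt3l, the cofactor of de novo DNA methylation, had 334 and 336 against 0.139 and 0.467. Cd9, a tetraspanin used as a stem cell surface marker, was the least different member, with 369 and 379.9 FPKM against 169 and 213 in MEF. It passed the first test and not the 2-fold one.

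The LIF pathway did not move one way. Of 11 genes tested, 5 were higher and 5 lower, beside 48.7% and 32% of all tested genes. The higher count is near that share. The induced genes of the pathway were on the higher side: Socs3, the feedback inhibitor of the pathway, had 147 and 148 FPKM against 19.2 and 13.2 in MEF (3.13, SE 0.18; limma adjusted p = 9.7e-05). The kinase Pim1 had 101.27 and 108 against 15.7 and 11.3. The shared receptor chain Il6st was lower, with 13.2 and 13.3 against 66.5 and 61.5, and so was the kinase Jak1, with 20.3 and 19.9 against 59.98 and 68.9. Lifr itself had 7.22 and 7.48 against 4.11 and 4.18 FPKM.

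Genes of the formative and primed stages, which follow naive pluripotency, were higher at 10 of 11 and lower at 1. Tcf15 had 66.5 and 65.3 FPKM against 0.225 and 0, Dnmt3b 17 and 18.3 against 0.818 and 1.02, and Otx2, a factor of the primed state, 3.46 and 3.47 against 0.0154 and 0.0318. The tight-junction gene Cldn6 had 29.2 and 31.7, was listed at 0 in both MEF libraries and had 0.415 and 3.51 FPKM in mESC. Of 11 formative and primed genes tested against mESC, 2 were higher and 3 lower in KD_control, beside 26.8% and 14.5% of all genes. Germline genes were higher at all 15 tested of 19 listed, each past the 2-fold test, and the other members were below 1 FPKM in both groups. All 19 together summed to 1.25 and 2.26 FPKM in MEF. Members thus entered the test almost only through KD_control, and the direction was largely set by the filter. Stra8, a gene of meiotic entry, had 67.8 and 67.5 FPKM and was listed at 0 in MEF. The meiosis and piRNA genes Mael, Dmc1, Piwil2 and Stag3 lay at 9.14 FPKM or more in KD_control and at 0.240 or less in MEF. Genes of the two-cell-like state, a rare state of stem cell cultures, were low in level. Of 12 listed, 8 were tested and all 8 were higher, and 7 of them were listed at 0 in MEF. All 12 together summed to 0.206 and 0.231 FPKM in MEF. A member could thus enter the test only through KD_control and could only be higher, so the count says nothing of direction. Zscan4c had 3.94 and 3.55 FPKM in KD_control. The Zscan4, Tcstv and Usp17l genes have near-identical copies among which reads may have been split, so their single values are uncertain.

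Extra-embryonic genes were mixed. In the primitive endoderm list 8 of 11 were higher and 2 lower. Lama1, a laminin chain, had 13.2 and 12.7 FPKM against 0.692 and 0.679, whereas its partner Lamb1 had 15 and 13.8 against 73.9 and 68.3. Gata6 had 12.9 and 12.6 against 4.27 and 4.08. In the trophectoderm list 8 of 13 were higher and 3 lower. Tfap2c had 22.2 and 22.3 FPKM against 0 and 0.0594. The simple keratin Krt19 had 66 and 69 against 8.75 and 5.4, and its mESC libraries lay at 0.342 and 14.1. Fgfr2 was lower, with 0.88 and 0.807 against 13.7 and 13.7. Genes of neural ectoderm took 0.00959% and 0.00922% of summed FPKM in KD_control and those of mesoderm and endoderm 0.00108% and 0.00107%, and 6 and 4 members were tested. Olig2, a neural progenitor factor, was higher, with 3.83 and 3.65 FPKM and 0 in both MEF and both mESC libraries. Nestin (Nes) was lower than in MEF, with 2.09 and 2.31 against 20.6 and 16.6. Of 4 neural genes tested against mESC, 1 was higher and 2 lower in KD_control, beside 26.8% and 14.5% of all genes.

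The fibroblast side was led by matrix genes. Of 24 collagen genes, 21 were lower and 2 higher in KD_control, with 19 lower and 1 higher past the 2-fold test, and a median of -4.22 (-4.21 without Col8a1, listed at 0 in KD_control). Collagens made up 1.41% and 1.23% of the summed FPKM of the MEF libraries and 0.0210% and 0.0213% of KD_control. Col1a1, a chain of type I collagen (chromosome 11, 94936270 to 94951856), had 0.775 and 0.771 FPKM against 2894 and 2226 in MEF (-10.48, SE 0.15; limma adjusted p = 7.7e-06). Its partner chain Col1a2 had 0.0819 and 0.128 against 1562 and 1308, and Col3a1 0 and 0.00493 against 507 and 452. The type IV chains of basement membranes had smaller gaps. Col4a1 had 44.1 and 43.8 FPKM against 123 and 93.7, and Col4a2 22.4 and 22.7 against 90.3 and 65.1. Col18a1, also of basement membranes, and the transmembrane collagen Col13a1 were the higher members, Col18a1 with 35.9 and 37.9 against 25.8 and 16.8 and Col13a1 with 2.36 and 2.72 against 0.00531 and 0, though under scaling by median ratios Col18a1 did not pass (0.53, limma adjusted p = 0.057). Col9a3 did not pass the test.

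Among matrix glycoproteins, elastic fibre genes and proteoglycans, 30 of 31 tested were lower and 1 higher. Thbs1, thrombospondin, had 0.125 and 0.16 FPKM against 1347 and 1427 in MEF (-10.25, SE 0.08; limma adjusted p = 5.3e-06). Tenascin (Tnc) had 0.0117 and 0.0153 against 364 and 319 and fibrillin (Fbn1) 0.826 and 0.888 against 133 and 129.9. Fibronectin (Fn1), at 192 and 190.0 FPKM in the stem cells and 903 and 817 in MEF, had a smaller gap. So did the collagen-binding Sparc, at 146 and 151 against 1190.0 and 1186. Nid2, a basement membrane linker, was the higher member, with 100.88 and 99.3 against 24.7 and 21.5. Postn, Dcn, Fmod and Aspn were listed at 0 in both KD_control libraries and lay between 38.8 and 467 FPKM in MEF.

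Enzymes that fold and crosslink collagen were mostly lower: 22 of 25 were lower and 2 higher, with 15 and 0 past the 2-fold test. Among the extracellular crosslinking oxidases Lox had 0.139 and 0.0681 FPKM against 562 and 689.8 (-9.14, SE 0.13; limma adjusted p = 7.7e-06), and Loxl1 3.6 and 2.97 against 196 and 139. Loxl2 was nearer, with 46 and 46.2 against 90.9 and 86.4. Prolyl and lysyl hydroxylases, which modify collagen in the endoplasmic reticulum, differed among themselves. P4ha3 had 0.454 and 0.322 FPKM against 38 and 33.8 (-4.73, SE 0.11; limma adjusted p = 1.1e-05), and Plod3 17.1 and 16.5 against 112 and 89.6. P4ha1 had 79.7 and 81 against 62 and 64.1, and Plod2 48.8 and 46.3 against 28.9 and 36.8. The latter pair were the higher members of the list, and neither passed under scaling by median ratios (0.07 and 0.26, limma adjusted p = 0.47 and 0.16). The chaperone Serpinh1 had 263 and 263 against 978 and 738. Matrix proteases and their inhibitors were lower at 20 of 22 and higher at 2. Timp2, an inhibitor of matrix proteases, had 2.57 and 2.69 FPKM against 298 and 284, and the membrane protease Mmp14 7.16 and 7.33 against 329 and 289. Mmp15, another membrane protease, and Mmp11 were higher, Mmp15 with 8.96 and 8.27 against 0.877 and 0.754 and Mmp11 with 43.2 and 42.3 against 20.2 and 17.1.

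Contractile and stress-fibre genes were lower at all 29 tested members, 26 of them past the 2-fold test, with a median of -3.47 (-3.63 without the gene listed at 0 in KD_control). The list took 2.39% and 2.42% of summed FPKM in MEF and 0.0985% and 0.0998% in KD_control. Smooth muscle actin, Acta2 (chromosome 19, 34240336 to 34255373), had 0.0574 and 0 FPKM against 1556 and 1609 (-10.59, SE 0.08; limma adjusted p = 5.3e-06). Transgelin (Tagln) had 1.37 and 0.742 against 1345 and 1194, and the regulatory light chain Myl9 1.11 and 0.437 against 568 and 440.3. Tropomyosin Tpm1 kept 26.5 and 28.4 FPKM in the stem cells against 1143 and 1089 in MEF. Vimentin (Vim), the mesenchymal intermediate filament, had 73.1 and 72.7 against 2989 and 2878. Desmin (Des), Pdlim7 and Synpo2 passed the first test and not the 2-fold one, Des with 7.36 and 8.36 against 22.8 and 17.4 and Synpo2 with 0.292 and 0.317 against 1.06 and 1.1. The gene of serum response factor, Srf, which drives many genes of this kind through CArG boxes, had 11.1 and 10.9 FPKM against 34.6 and 29.6 (-1.46, SE 0.11; limma adjusted p = 2.0e-04).

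A search for the CArG box, CC and GG around 6 bases that are A or T and so the same pattern on both strands, covered the 250 bases before the start in RefSeq's promoter sequences (GRCm38.p6, the assembly of mm10). It is shown because these genes were lower together. A box stood in 8 of the 26 contractile genes that have a promoter there, which is 30.8%, against 1.55% of 25748 autosomal genes. The genes were Acta1, Actc1, Cnn2, Filip1l, Lima1, Myl9, Srf and Vcl. The list was drawn up from genes known as contractile, many of them textbook targets of serum response factor, so the share describes the list and is not independent of it. A match is only these letters in this window. Below, 5 of them are given 5′ to 3′ on the gene's strand, with the box in capitals.
Myl9 (chr2:156775278-156775337, plus strand): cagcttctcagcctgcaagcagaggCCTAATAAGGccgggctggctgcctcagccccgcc
Cnn2 (chr10:79988519-79988578, plus strand): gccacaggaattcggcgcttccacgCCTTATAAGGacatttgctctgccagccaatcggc
Filip1l (chr16:57549155-57549214, plus strand): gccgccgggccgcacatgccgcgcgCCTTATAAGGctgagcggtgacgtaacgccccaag
Vcl (chr14:20929148-20929205, plus strand): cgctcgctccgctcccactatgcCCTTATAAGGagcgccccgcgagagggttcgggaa
Srf (chr17:46556190-46556269, minus strand): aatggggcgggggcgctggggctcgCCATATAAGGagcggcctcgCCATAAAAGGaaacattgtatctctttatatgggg
All 8 genes with a box were called lower, as was the rest of the list. Myl9 was given above. Cnn2, calponin, had 32.6 and 35.4 FPKM against 589 and 447, Filip1l 0.142 and 0.0784 against 51.7 and 67.1, and the adhesion protein vinculin, Vcl, 25.7 and 26.4 against 180.5 and 196. Cardiac actin Actc1 was listed at 0 in KD_control and at 4.69 and 6.02 FPKM in MEF. For the pluripotency factors, the core of the octamer bound by POU factors (TGCAAAT, both strands) was found before 2 of 17 genes with a promoter there, Zfp42 and Zfp296, which is 11.8% against 4.06% of all genes.

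Mesenchymal transcription factors were lower at 33 of 34 and higher at 0, with 27 past the 2-fold test. Prrx1, a homeobox factor of limb and body wall mesenchyme, had 0.00575 and 0.00564 FPKM against 131 and 164 (-7.20, SE 0.13; limma adjusted p = 8.8e-06). Twist2 had 0.0499 and 0 against 71.1 and 50.8 and Runx1 0.426 and 0.457 against 16.3 and 15.3. Some of these factors were not absent from stem cells. Snai1, a repressor of epithelial genes, had 7.58 and 5.72 FPKM against 96.5 and 66.7, and Prrx2 10.7 and 8.71 against 192 and 123. Barx1 was the member that did not pass, with 3.37 and 3.12 against 4.15 and 3.19.

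Of 39 Hox genes, which set position along the body axis, 36 were tested. In KD_control 31 were lower and 3 higher, with 22 and 2 past the 2-fold test. Genes of the Hoxc cluster had the widest gaps on the lower side. Hoxc6 had 0.099 and 0.214 FPKM against 13.7 and 12.6, Hoxc10 0.080 and 0.126 against 9.17 and 8.41, and Hoxc8 was listed at 0 in KD_control and at 9.4 and 10.9 in MEF. Higher members included Hoxd1, with 1.29 and 1.65 against 0.0545 and 0, and Hoxb13, with 7.06 and 6.67 against 0.196 and 0.32 FPKM. Hoxb13 was also higher than in the mESC libraries, which had 0.691 and 1.47 (limma adjusted p = 0.0097). Hoxb4 and Hoxc13 did not pass.

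**Figure D2:**
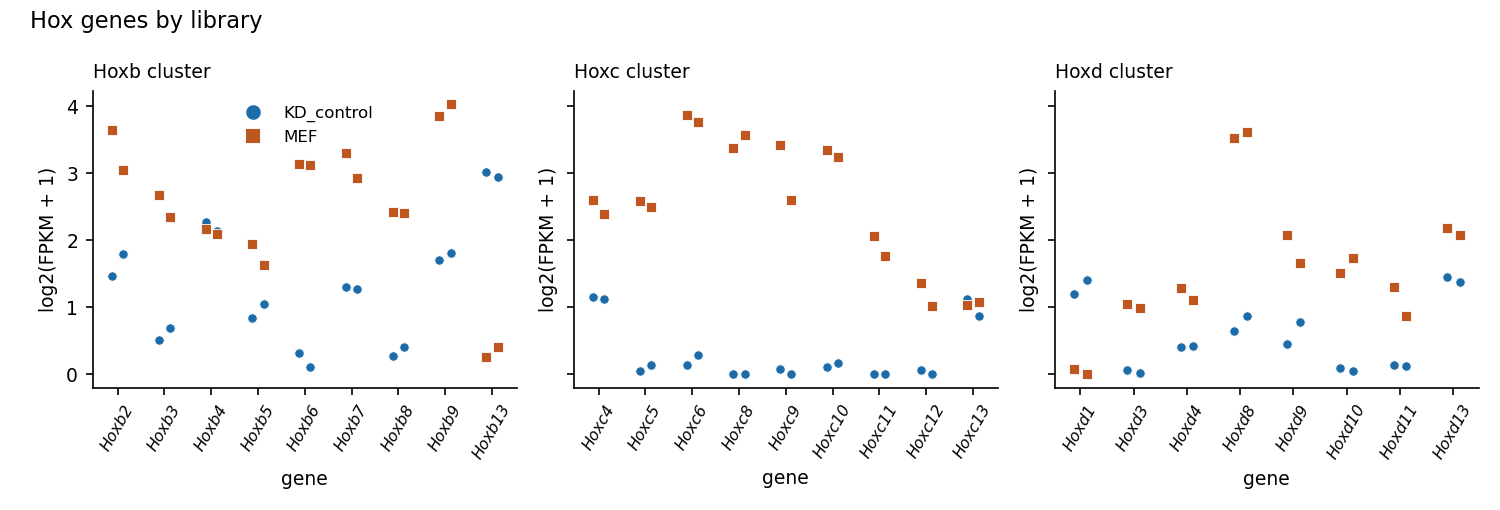
Each of 3 panels is a Hox cluster (b, c and d) with its tested genes in numerical order, and each point a library on an axis of log2(FPKM + 1). KD_control libraries (blue circles) lie below MEF libraries (orange squares) at most genes, and above them at Hoxb13 and Hoxd1, with the groups overlapping at Hoxc13 and close together at Hoxb4.

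Epithelial genes went the other way. Of 22 junction genes and their regulators, 21 were higher and 0 lower, with 19 past the 2-fold test and a median of 2.68 (2.69 without the 3 genes listed at 0 in MEF). E-cadherin, Cdh1, had 93.4 and 91.1 FPKM against 0.0138 and 0.0501 in MEF (6.50, SE 0.09; limma adjusted p = 7.5e-06). Epcam had 80.7 and 78.9 against 0.242 and 0.201 and the protease inhibitor Spint2 253 and 259.9 against 2.04 and 2.71. N-cadherin, Cdh2, which replaces Cdh1 in mesenchyme, had 0.833 and 0.894 FPKM against 28.1 and 28.4. Plakoglobin (Jup), shared by both kinds of cadherin junction, was the member that did not pass, with 13.5 and 12.8 against 14.9 and 13.6. Under median ratios it was called lower (-0.36, limma adjusted p = 0.016). Against mESC 11 of 22 genes of the list were higher and 1 lower, where 26.8% of all tested genes were higher and 14.5% lower. Cldn7, a tight-junction claudin, had 0.594 and 2.32 FPKM in mESC, beside 43.8 and 40.7 in KD_control and 0.124 and 0 in MEF. St14, a membrane protease of epithelia, had 3.89 and 11.1, beside 38.9 and 38.2 in KD_control and 0.0458 and 0.0633 in MEF.

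Mesenchymal surface and adhesion genes were lower at 28 of 31 and higher at 2 (1 under median ratios). Caveolin, Cav1, had 0.141 and 0.046 FPKM against 324 and 399.6. Cdh11, a cadherin of mesenchyme, had 0.0741 and 0.0836 against 194 and 235, and the receptor kinase Axl 1.1 and 0.977 against 144 and 124. Anxa2, a membrane-binding annexin, kept 289 and 293 FPKM in KD_control against 904 and 934 in MEF, while the mESC libraries had 8.42 and 88.1. Pdgfrb had 7.89 and 7.6 FPKM against 82.7 and 71.1, with 0.636 and 1.09 in mESC. Both stem cell sets had been kept on feeder fibroblasts before gelatin, and any part of feeder RNA in these values was not tested. Of the 12 fibroblast markers, Pdgfrb, Thy1 and Pdgfra made up most of the KD_control sum. Thy1, a surface protein, had 7.27 and 8.23 FPKM in KD_control, and the receptor Pdgfra 1.99 and 2.09. The other markers, collagens among them, were below 1 FPKM in both KD_control libraries.

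Signalling genes were described by ligand, receptor and target. In the TGF-beta and YAP/TEAD list 17 of 22 were lower and 2 higher (1 under median ratios). Ctgf, a target of YAP, had 14.4 and 14.3 FPKM against 595 and 569 in MEF. Cyr61, another target, had 4.33 and 4.0 against 445 and 403. The coactivator Yap1 itself was closer, with 41.9 and 44.4 against 64.6 and 70.9 (-0.64, SE 0.09; limma adjusted p = 0.0023). The receptor Tgfbr2 had 1.18 and 1.27 against 39.5 and 39.8. The insulin-like growth factor axis was lower at 15 of 17. Igf2 had 0.903 and 0.784 FPKM against 1154 and 1037 and the neighbouring noncoding H19 27.4 and 29.2 against 1915 and 1644. Igfbp2, a binding protein, and the RNA-binding protein Igf2bp1 were higher, Igfbp2 with 736 and 722 against 156 and 111. Cytokine and chemokine genes were lower at 16 of 18. All 21 listed genes summed to 10.0 and 11.1 FPKM in KD_control. Members thus entered the test almost only through MEF, and the direction was largely set by the filter. In both KD_control libraries 6 were listed at 0. The monocyte attractants Ccl2 and Ccl7 were among these, Ccl2 with 107 and 101.04 FPKM in MEF and Ccl7 with 124 and 137. Csf1, the macrophage growth factor, had 0.243 and 0.355 against 133 and 121.

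Developmental pathways split between members. Their counts are to be read against the 48.7% of all tested genes that were higher and the 32% that were lower. In the Wnt list 17 of 26 were lower and 4 higher: Wnt5a had 0.069 and 0.0903 FPKM against 26.6 and 27.1, whereas the nuclear factor Tcf7 had 21.6 and 23 against 1.46 and 1.11. In the BMP and Nodal list 16 of 22 were lower and 4 higher. The BMP target Id2 had 2.05 and 2.81 FPKM against 54.1 and 63.8, and Id3 had 8.14 and 6.62 against 474 and 287. Receptors of activin differed in direction. Acvr2b was higher, with 9.33 and 8.66 against 0.385 and 0.525, as was Acvr1b, with 26 and 25.4 against 6.75 and 5.76, while Acvr2a was lower, at 7.25 and 9.76 in MEF (-1.48, SE 0.16; limma adjusted p = 7.6e-04). In the FGF and ERK list 7 of 17 were higher and 9 lower, and 5 and 10 under median ratios. Its receptors differed in direction. Fgfr3 had 25.3 and 24.4 FPKM against 1.16 and 0.939 in MEF, with 0.752 and 3.0 in mESC. Of 15 genes of this list tested against mESC, 3 were higher and 4 lower in KD_control, beside 26.8% and 14.5% of all genes. Fgfr4 had 4.21 and 4.17 FPKM against 0.13 and 0.093 in MEF. Fgfr1 had 30.2 and 28.6 against 78.7 and 69.3. Of Notch genes 7 of 11 were higher and 4 lower, and 5 and 4 under median ratios. Dll1 had 10.8 and 10.9 against 0.218 and 0.141 and Jag1 2.21 and 1.84 against 13 and 13.1. In the Hedgehog list 4 of 10 were higher and 6 lower. The target gene Gli1 had 5.02 and 5.58 FPKM against 0.0338 and 0.131, and the receptor Ptch1, itself a target, 16.3 and 15.8 against 2.48 and 2.17. The transducer Smo was lower, with 17.4 and 17.1 against 46.6 and 41.9, as was the factor Gli3, with 1.13 and 1.07 against 9.11 and 8.83.

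Immune genes were not uniformly low in the stem cells. In antigen presentation 5 of 13 were higher and 6 lower. B2m, the invariant chain of class I molecules, had 13.8 and 14.6 FPKM against 366 and 458 (-4.76, SE 0.13; limma adjusted p = 1.5e-05). The heavy chain gene H2-K1 was higher, with 68.8 and 66.2 against 16.9 and 15.8 (1.98, SE 0.09; limma adjusted p = 4.3e-05). It was higher than in mESC too, which had 8.99 and 12.9. Class I heavy chain genes have near-identical copies, so these values are uncertain. In the antiviral list 15 of 21 were lower and 6 higher. The DNA-sensing adaptor Tmem173 (STING) had 0.662 and 0.586 FPKM against 17.8 and 18, and Ifitm3 64.6 and 57.8 against 417 and 414. Bst2 (tetherin) was higher, with 141 and 144 against 40.1 and 29.7.

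Replication genes were higher in the stem cells almost without exception. Of 37 licensing and fork genes, 35 were higher and 1 lower, with 25 past the 2-fold test and a median of 1.69. Mcm2, a subunit of the replicative helicase, had 207 and 211 FPKM against 37 and 31.9 (2.57, SE 0.10; limma adjusted p = 3.4e-05), and Mcm7 274 and 269 against 50.8 and 47.7. Orc4, of the origin recognition complex, was the lower member, with 7.76 and 8.23 against 10.02 and 15.2. Mitotic genes were nearer to level: 17 of 24 were higher and 4 lower, 3 past the 2-fold test, with a median of 0.60. The kinase Aurkb had 89 and 92.3 FPKM against 29.6 and 23.5, but the kinetochore motor Cenpe was lower, with 5.42 and 5.39 against 12.1 and 15. With median-ratio scaling 12 mitotic genes were higher and 5 lower.

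Of cyclins, cyclin-dependent kinases and E2F factors 15 of 24 were higher and 6 lower. D-type cyclins were lower apart from Ccnd3: Ccnd1 had 18 and 18.4 FPKM against 85 and 80.2, and Ccnd2 5.25 and 5.63 against 108 and 112. Ccnd3 had 166 and 165 against 95.6 and 69.8. The E-type cyclins differed in direction, with Ccne1 at 92.9 and 94.1 FPKM against 35.8 and 36.9 and Ccne2 at 2.05 and 2.48 against 3.67 and 5.49. The phosphatase Cdc25a had 40.8 and 41.2 against 12.4 and 12.6. Of inhibitors and pocket proteins 2 of 10 were higher and 6 lower. Lower inhibitors of the INK4 class included Cdkn2b at 1.49 and 1.85 against 35 and 26.1 and Cdkn2a at 2.29 and 1.99 against 18.1 and 10.2. Cdkn2d of the same class was higher, with 30.3 and 33.8 against 23.6 and 20.5, and did not pass under scaling by median ratios (0.26, limma adjusted p = 0.079). Cdkn1b (p27) was higher too, with 60.5 and 61.7 FPKM against 15.4 and 14.3 (1.97, SE 0.09; limma adjusted p = 4.4e-05).

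Homologous recombination and Fanconi genes were mostly higher: 23 of 29 were higher and 2 lower, with 15 past the 2-fold test. Fancd2 had 32.3 and 32.9 FPKM against 3.33 and 3.66, and Brca1 19 and 18.8 against 4.16 and 4.18. Nbn, a sensor of double-strand breaks, was lower, with 4.6 and 4.54 against 14.4 and 19, and Fancf was the other lower member. Of genes of non-homologous end joining 5 of 11 were higher and 1 lower, with a median of 0.31, near the values over all genes (48.7% higher, median 0.30). The widest gaps were at Poll, Xrcc5 and Xrcc6. The Ku subunit Xrcc5 had 49.6 and 50.7 FPKM against 8.19 and 11.2, and the other subunit, Xrcc6, 63.1 and 64.4 against 14.1 and 12.8. In microhomology-mediated end joining 4 of 7 were higher and 1 lower (4 and 2 under median ratios). Parp1 had 217 and 219.7 FPKM against 26.1 and 23.4 (3.10, SE 0.09; limma adjusted p = 1.7e-05). Ercc1, a nuclease subunit, was lower, with 9.08 and 9.73 against 61.7 and 43.6, and its partner Ercc4 was higher, with 4.72 and 4.7 against 3.07 and 2.99. In translesion synthesis 9 of 12 were higher and 1 lower, and 6 and 3 under median ratios. Poli, an error-prone polymerase, had 13.3 and 14 FPKM against 1.38 and 1.59. Rev3l, the catalytic subunit of polymerase zeta, was lower under both scalings, with 2.37 and 2.37 against 4.4 and 5.3. Of telomere genes 10 of 13 were higher and 0 lower, and 7 higher under median ratios. Telomerase, Tert, had 7.29 and 7.43 FPKM against 1.2 and 1.2, and the telomere-capping gene Ctc1 61.5 and 61.9 against 9.04 and 8.47.

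Subunits of chromatin complexes differed in direction. The counts are to be read against the 48.7% of all tested genes that were higher and the 32% that were lower. In the Polycomb list 18 of 30 were higher and 7 lower, and 17 and 8 under median ratios. Phc1 had 323 and 315 FPKM against 7.83 and 7.27 in MEF, while its family member Phc2 was lower, with 21.4 and 20.3 against 71.9 and 50.3. The chromobox gene Cbx7, a reader of the Polycomb mark, had 38.5 and 39.8 against 0.306 and 0.397. Cbx6 of the same family was lower, with 11.8 and 12.47 against 27.8 and 21.4. Members of both families thus differed in direction. Bmi1 had 1.45 and 1.64 FPKM against 12.8 and 18.7 (-2.70, SE 0.19; limma adjusted p = 1.8e-04), whereas its paralog Pcgf2 had 27.5 and 30.2 against 11.1 and 10.4. Pcgf6, of variant complexes, had 21.4 and 22.6 against 5.92 and 7.51. Of BAF remodelling subunits 11 of 24 were higher and 10 lower, and scaling by median ratios gave 8 higher and 10 lower, so this list had no direction that both scalings share. Past the 2-fold test were 4 higher subunits and 3 lower ones, the latter Smarcc2, Smarca2 and Smarcd3. Smarcc2 had 5.74 and 5.67 FPKM against 23.2 and 20.9, and its paralog Smarcc1 40.9 and 41.4 against 26.2 and 29.2. DNA methylation genes were higher at 10 of 15 and lower at 2, and 9 and 3 under median ratios. Tet1 had 19.8 and 19.7 against 0.49 and 0.715 and Uhrf1 136 and 137 against 33.9 and 30.4.

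In the nuclear lamina and envelope list 6 of 13 were higher and 6 lower. Lamin A, Lmna, had 22.1 and 23 FPKM against 523 and 331 (-4.15, SE 0.23; limma adjusted p = 8.2e-05). The B-type lamins were higher, Lmnb1 with 95.8 and 92 against 56 and 46.3 and Lmnb2 with 41.2 and 41.7 against 15.7 and 11.5. Lbr, which tethers heterochromatin to the envelope, had 73.7 and 76.5 against 24 and 27. Sun1 and Sun2 differed in opposite directions, Sun1 with 73.1 and 71.3 against 22.1 and 21.4 and Sun2 with 11.1 and 11.7 against 30.7 and 24.1.

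Splicing regulators were lower at 15 of 24 and higher at 7. The muscleblind gene Mbnl1 had 1.9 and 1.65 FPKM against 39.2 and 53.4, and Mbnl2 had 11.5 and 11.6 against 58 and 74.5. The epithelial regulator Esrp1 was higher, with 3.8 and 4.11 against 0.00774 and 0.0481. The SR protein Srsf2 had 75 and 77.8 FPKM in KD_control, 241 and 213 in MEF and 478 and 447 in mESC. It was lower than in either other group (log2 differences -1.55 and -2.58; limma adjusted p = 1.2e-04 and 0.0074). Srsf3 was ordered the same way, with 54.4 and 53.1 in KD_control, 119 and 138 in MEF and 354 and 249.8 in mESC. So for these genes MEF lay between the stem cell sets. Myc had 2.37 and 2.22 FPKM in KD_control, 37.2 and 33.1 in MEF and 16.7 and 16 in mESC, while Mycn had 18.3 and 17.8 in KD_control, 0.643 and 0.384 in MEF and 40.1 and 43.1 in mESC. Among 22 genes of the Myc family and ribosome biogenesis 12 were higher and 5 lower than in MEF, and 0 were higher and 12 lower than in mESC, beside the 26.8% and 14.5% of all genes. Ncl, nucleolin, had 65.4 and 68.1 FPKM, beside 96.6 and 114 in MEF and 207 and 227 in mESC.

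Glycolysis genes were higher in KD_control and took a larger share of summed FPKM. Of 23 genes of glycolysis and glucose uptake 22 were higher and 1 lower, with 18 past the 2-fold test and a median of 1.87. They took 4.62% and 4.52% of summed FPKM in KD_control, 1.38% and 1.31% in MEF, and 1.42% and 2.21% in mESC. Aldolase, Aldoa, had 3123 and 3013 FPKM against 724 and 575 (2.25, SE 0.13; limma adjusted p = 1.0e-04). Pfkp, the platelet-type phosphofructokinase, had 313 and 304 against 15.2 and 14.2, and enolase, Eno1, 3266 and 3187 against 1185 and 1119. Eno3, the muscle enolase, was the lower member, with 11.2 and 11.2 against 20.4 and 16.3. Compared with mESC 11 of 23 were higher and 1 lower, beside 26.8% and 14.5% of all tested genes. The mESC libraries themselves lay far apart, as at Aldoa with 198 and 894 FPKM.

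Most listed genes of amino acid supply and of the integrated stress response were also higher in KD_control. Asns, asparagine synthetase, had 671 and 689 FPKM against 117 and 133 in MEF and 132 and 131 in mESC. In the integrated stress response list 11 of 16 were higher than in MEF and 3 lower, beside 48.7% and 32% of all tested genes. Against mESC 10 were higher and 0 lower, beside 26.8% and 14.5% of all tested genes. Chac1, which breaks down glutathione, had 78.2 and 82 FPKM, 24.1 and 23 in MEF and 3.94 and 7.35 in mESC. The transcription factor Atf5 was lower than in MEF, with 29.7 and 29.8 against 223 and 166, and so was Cebpb, with 14.3 and 12.4 against 150.05 and 72.5. Gldc, of the glycine cleavage system, had 72.2 and 71.1 FPKM against 0.171 and 0.304, and Amt of the same system 99.2 and 99.9 against 0.831 and 0.402. Psph, the last step of serine synthesis, had 161 and 162 against 24.6 and 24.3. Of 19 genes of serine, glycine, threonine and one-carbon metabolism 14 were higher and 3 lower. Mat2a, which makes S-adenosylmethionine, was lower, with 24 and 25.1 FPKM against 63.7 and 81.7 in MEF and 324 and 188 in mESC.

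Of cholesterol synthesis genes 13 of 19 were higher and 3 lower than in MEF, and 10 and 3 under median ratios. Over all tested genes 48.7% were higher and 32% lower. Dhcr7 had 109 and 105 FPKM against 16.5 and 16.1. Lysosomal genes were lower at 13 of 23 and higher at 6, and 15 and 6 under median ratios. Cd63 had 87.2 and 91.8 against 1058 and 1155. In the glutathione and oxidative stress list 13 of 22 were higher and 6 lower, beside 48.7% and 32% of all tested genes. Past the 2-fold test 4 were higher and 4 lower. Gpx4, which clears lipid peroxides, had 2207 and 2145 FPKM against 342 and 302, while Gpx8 had 5.0 and 4.18 against 112 and 117. Of p53 targets 13 of 17 were higher and 3 lower, and 10 and 3 under median ratios. Pmaip1, which promotes apoptosis, had 60.6 and 61.9 FPKM against 5.8 and 7.52. Bbc3, of the same role, had 44.2 and 45 against 7.37 and 3.3. Cdkn1a, another p53 target, had 61.8 and 65.1 against 122 and 111. Immediate early genes were lower at 10 of 13 and higher at 1, with Egr1 at 1.15 and 1.07 against 80.1 and 78 and Jun at 4.26 and 3.8 against 50.01 and 33.3.

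**Figure D3:**
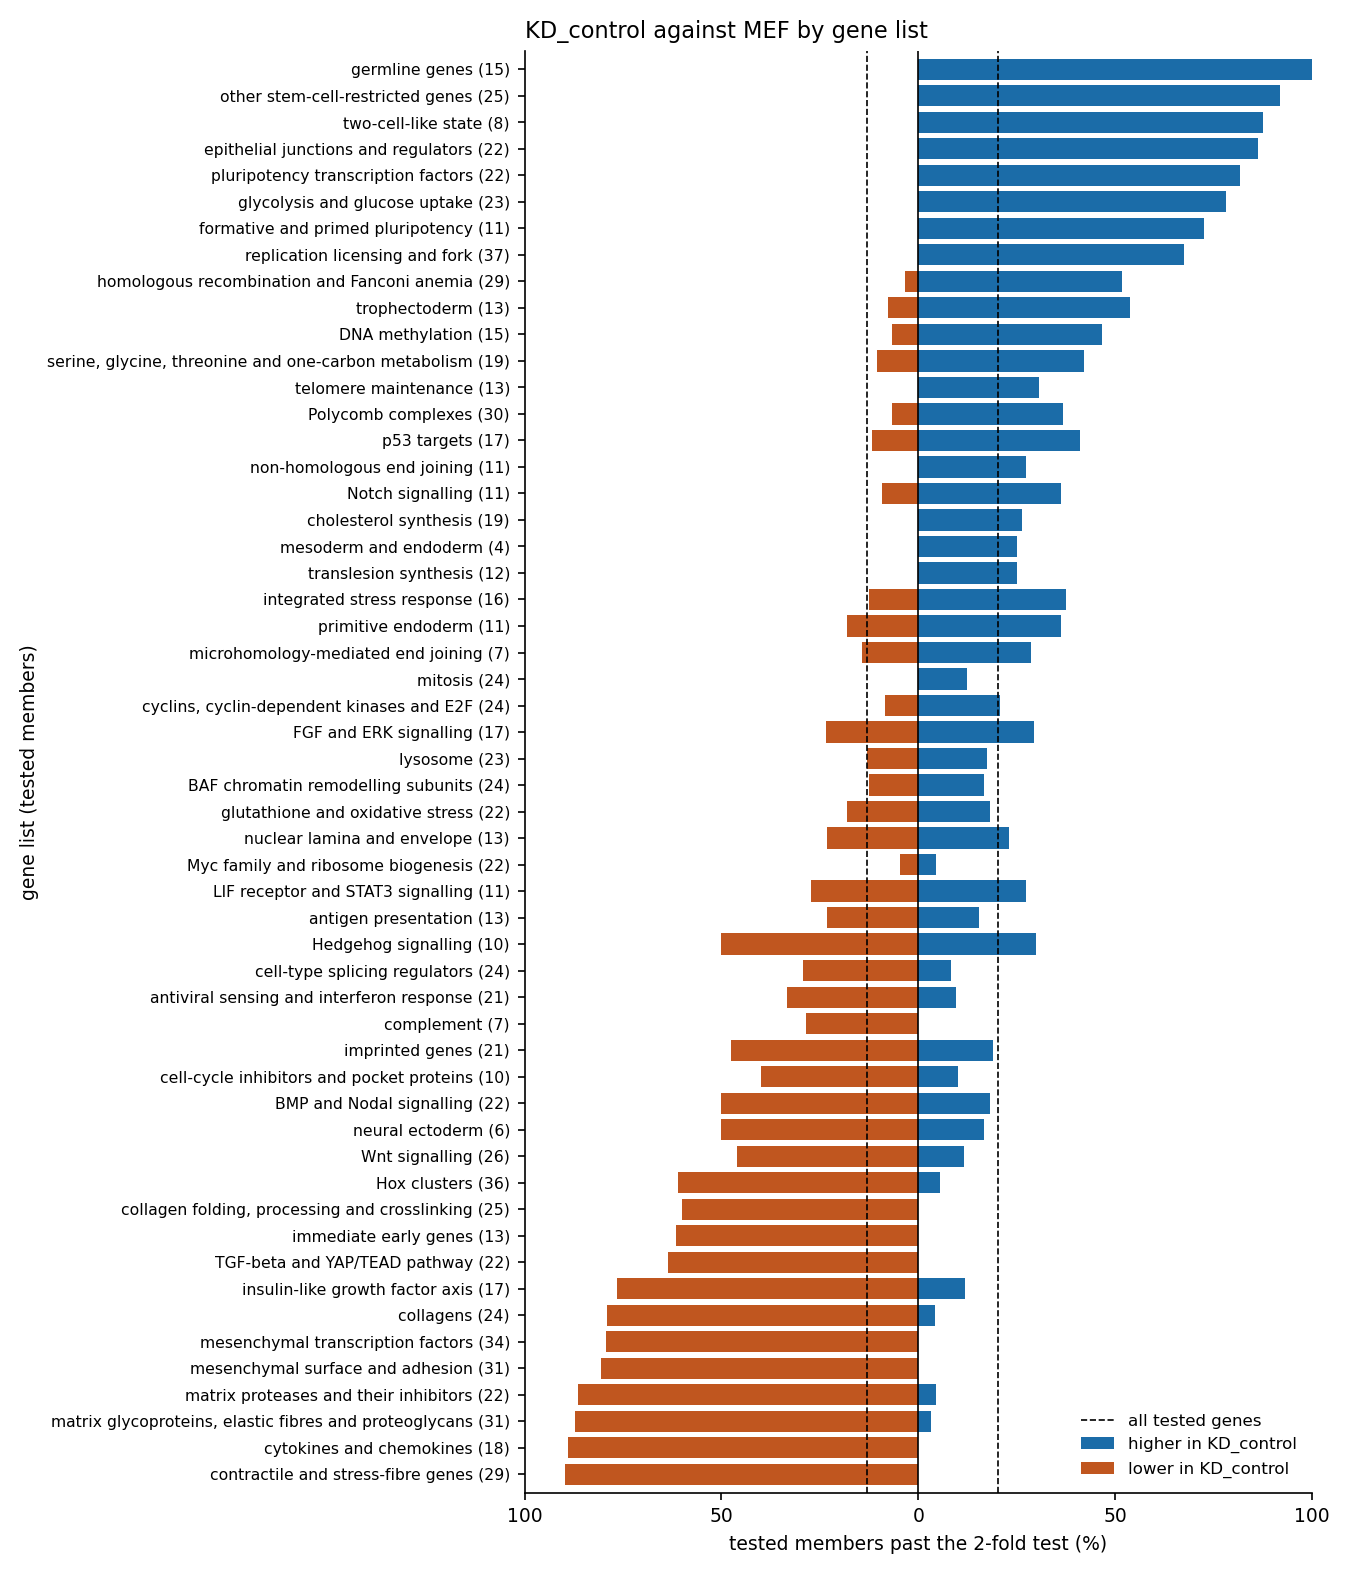
Bars give the percentage of each list's tested members that passed the test against a 2-fold change, to the right for higher and to the left for lower in KD_control, with the number tested in brackets. Dashed lines mark the same percentages over all tested genes, 20.3% and 13%. The germline, other stem-cell-restricted, two-cell-like, epithelial, pluripotency, glycolysis, formative and replication lists reach furthest right, and the contractile, cytokine, matrix glycoprotein and matrix protease lists furthest left. Members of the germline and two-cell-like lists entered the test almost only through KD_control, as did most of the other stem-cell-restricted list. Members of the cytokine list entered it almost only through MEF. The direction of these lists was thus largely set by the filter.

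Imprinted genes, expressed from 1 parental copy, were lower at 14 of 21 and higher at 6. The maternally expressed noncoding RNAs of the Dlk1 locus were at 1.09 FPKM or less in both KD_control libraries. Rian had 0.898 and 0.975 FPKM, with 97.3 and 128 in MEF and 108 and 73.7 in mESC (-5.86 and -5.55; limma adjusted p = 1.3e-05 and 0.0074). Meg3 had 0.922 and 1.09, with 71.9 and 58.5 in MEF and 38.7 and 63.5 in mESC (-5.04 and -4.66; limma adjusted p = 1.3e-05 and 0.0074). Mirg was ordered the same way, at 0.278 and 0.149 in KD_control, 6.45 and 5.6 in MEF and 6.63 and 11.6 in mESC. Dlk1, the paternally expressed gene of the locus, had 0.118 and 0.275 FPKM, 150.1 and 122 in MEF and 0.863 and 0.715 in mESC, so it was low in both stem cell sets. Snrpn was higher than in MEF, with 92.8 and 93.5 against 6.78 and 7.09, and so was Peg10, with 85.8 and 84.8 against 10.2 and 12.3. Grb10 had 15.2 and 15.1 against 222 and 237.

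KD_control was tested against the other stem cell set by the same method, and both comparisons share the KD_control libraries. Any difference in batch, or from what the knockdown control carried, cannot be told apart here from a difference between the cells. Of 12135 genes 5013 passed (41.3%), 3251 higher and 1762 lower, and 195 passed against a 2-fold change (1.61%), 1.23% higher and 0.379% lower. Median-ratio scaling gave 2599 higher and 2233 lower calls. The count varied with the libraries fitted: without either of its libraries 9737 and 10488 genes were called, and without either KD_control library 2021 and 2031. Among genes called against MEF, KD_control stood above mESC most at Dhrs7, Nupr1, Apoc2, Rnaset2a, Mef2b, Eno2, Apoa2 and Serpinf1. Dhrs7, a short-chain dehydrogenase, had 270.4 and 267 FPKM, 12.1 and 10.7 in MEF and 1.79 and 6.32 in mESC. Nupr1, a stress-induced chromatin protein, had 263 and 288 in KD_control, 89.6 and 70.2 in MEF and 3.53 and 13.3 in mESC. Mef2b, a MADS-box factor, had 60.1 and 59.4 in KD_control, 0.0552 and 0 in MEF and 1.03 and 1.31 in mESC. Below mESC most were Rian, Meg3, Ly6a, Zfp42, Mat2a, Smarcad1, Rex2 and Dab2. Zfp42, known as Rex1 and a marker of naive cells, had 34.3 and 36.6 FPKM in KD_control, 0.0567 and 0 in MEF and 406 and 502 in mESC (against mESC -3.64, SE 0.18; limma adjusted p = 0.0074). The surface antigen Ly6a had 0.411 and 0.663 in KD_control, 124 and 144 in MEF and 25.4 and 28.7 in mESC, so mESC lay between the other groups. Dab2, an endocytic adaptor of primitive endoderm, had 1.01 and 0.91 in KD_control, 21.4 and 25 in MEF and 11.1 and 24.1 in mESC. By chromosome, the median difference from mESC was -0.21 on chromosome 8 and between 0.04 and 0.44 on the other 18 autosomes. From MEF it was 0.30 on chromosome 8, within a range of -0.07 on chromosome 3 to 0.62 on chromosome 17.

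**Figure D4:**
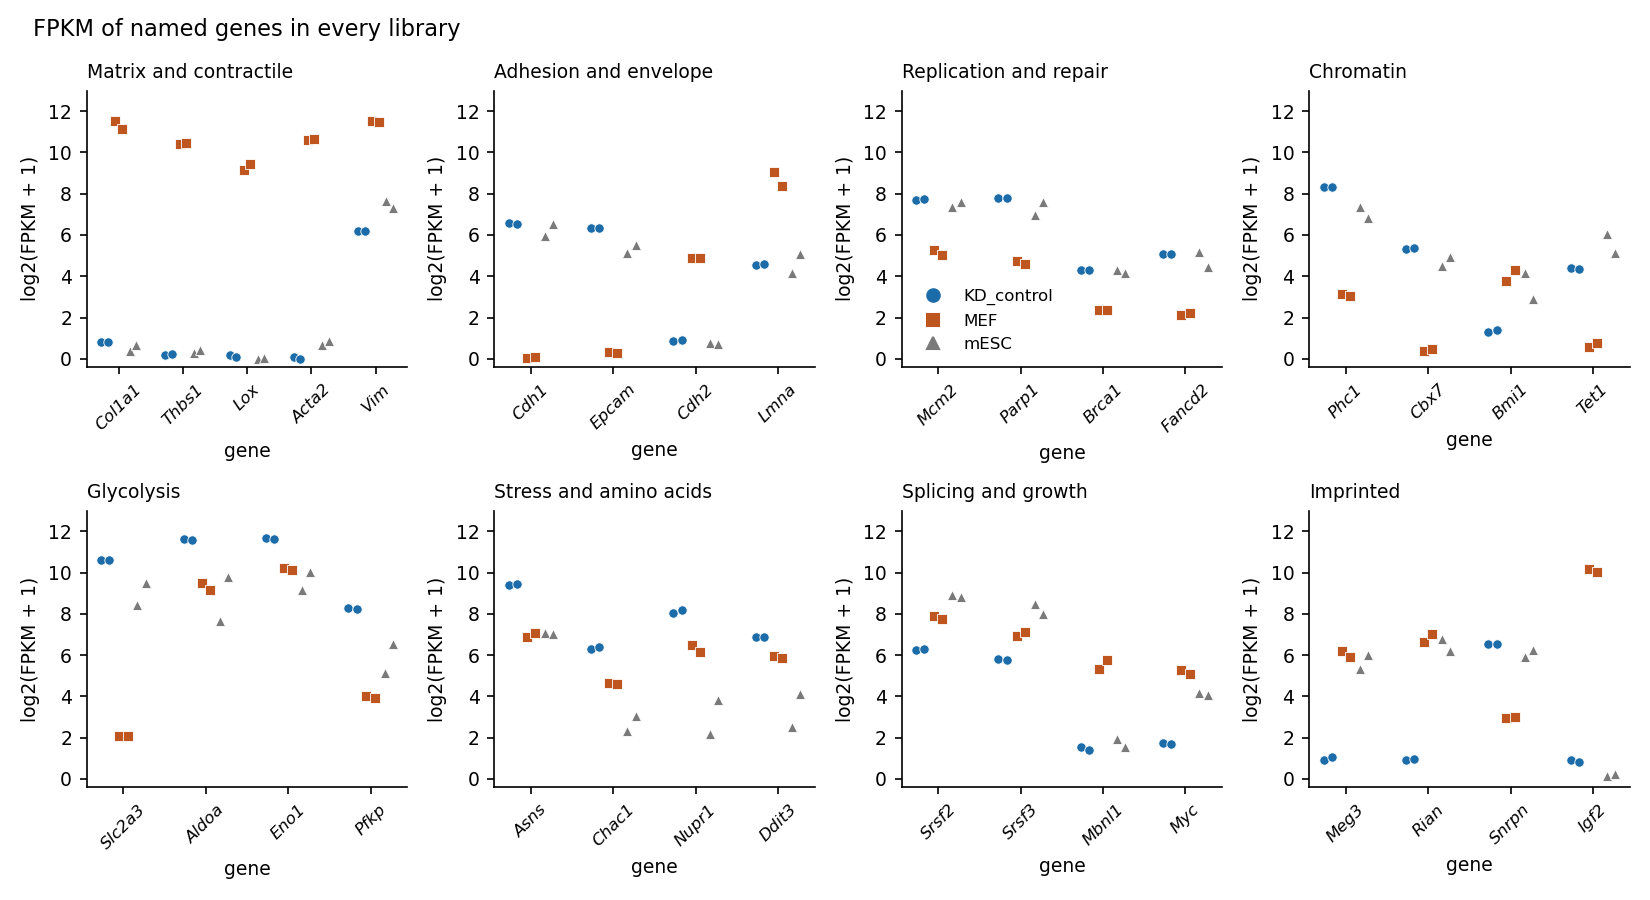
Each panel is a group of named genes, each point a library on an axis of log2(FPKM + 1). Blue circles are KD_control, orange squares MEF and grey triangles mESC. Both stem cell sets lie on the same side of MEF at the matrix, contractile, adhesion, envelope, replication and repair genes. MEF lies between them at Nupr1, Chac1, Ddit3, Srsf2 and Srsf3, and beside mESC at Meg3 and Rian.

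**Figure D5:**
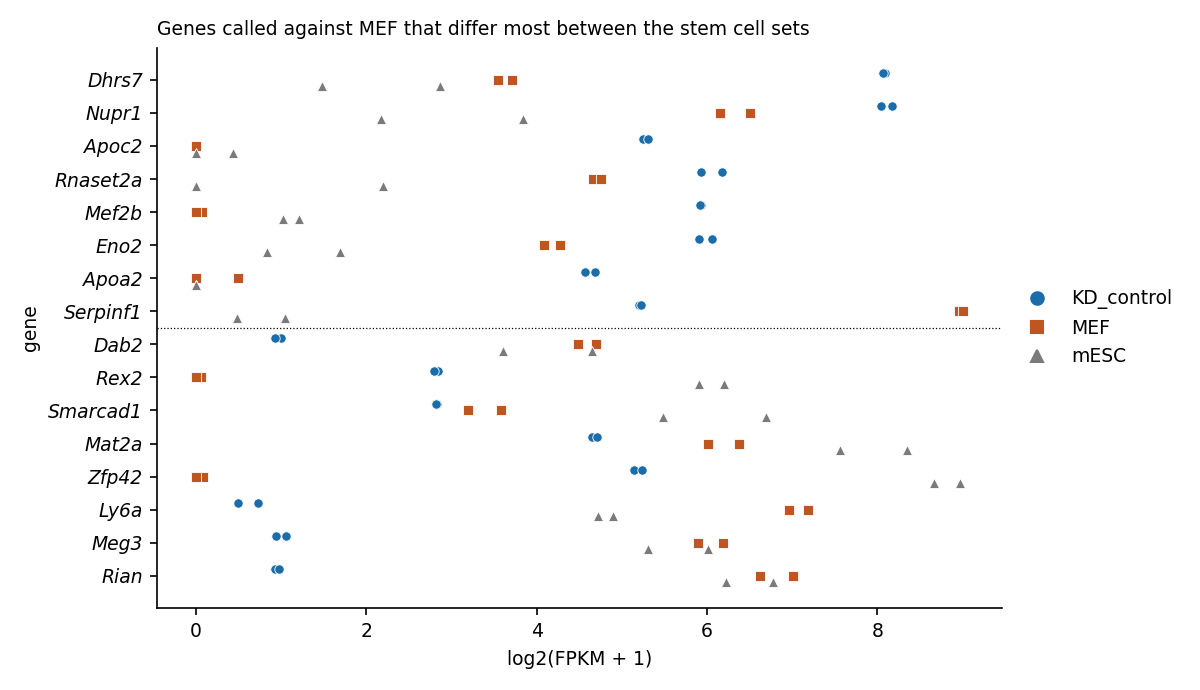
Each row is a gene called against MEF, each point a library on an axis of log2(FPKM + 1), for the 8 genes most above (upper) and most below (lower) mESC among those called in that test. KD_control libraries (blue circles) and mESC libraries (grey triangles) do not overlap at any of them, and MEF (orange squares) falls on either side or between.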

How the data were processed

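RNA was sequenced from 2 KD_control and 2 MEF libraries, with 2 mESC libraries beside them. The values are FPKM per locus with confidence bounds, as the authors deposited them in tables with the columns of a Cufflinks output, per the file headers. The submitters' processing notes name the mm10 build and, with no role given, HTSeq 0.6.1, TopHat2 2.0.8, CASAVA 2.19, Cuffdiff 2.1.1 and Cufflinks 2.1.1. FPKM was summed over the loci of a symbol, 1 symbol with a failed estimate was left out, and no read counts were used. Effective fragments were estimated from the confidence bounds, and an exact 0 may be a failed estimate.

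Genes whose mean reached 1 FPKM in 1 of the groups were tested with limma 3.58.1 (R 4.3.3, trend) on log2(FPKM + 1), with Benjamini-Hochberg adjustment over all tested genes and a threshold of 0.05. A further limma test was against a 2-fold change. On simulated data for KD_control against MEF (12891 genes, 200 changed) the test at 0.05 without that 2-fold minimum recovered 97% of 2-fold and 100% of 4-fold changes, and 5.29% of calls were false. For KD_control against mESC (12135 genes) it recovered 25% and 94%, with 4.80% false. The simulated noise was normal and equal in both groups, and few genes were changed. In the real libraries replicate spread differed between groups and 80.7% of genes were called against MEF, so these rates may not carry over.

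The members and the 54 gene lists were chosen with earlier results of these data known. Named by rule were Dppa5a, Rev1, Polq, the 12 widest gaps in each direction (called, a mean of at least 10 FPKM in the higher group, no overlap between libraries, no predicted genes, pseudogenes, Rik clones or small RNAs), up to 4 called members per list by smallest p, and the 8 genes most above and below mESC. In a list with fewer than 2 called members, the rule took the called one and at most 2 others by mean. The rule takes 240 genes, of which 140 are named here; some of the others are not reported here. A further 113 were chosen after their values were seen. Promoter sequences came from RefSeq (GRCm38.p6). Alternatives covered the pseudocount, filter, scaling, libraries fitted, replicate block, loci, sex chromosomes, transcript length and leaving out each library.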

Additional observations from a re-analysis of the deposited data

How the results depend on the processing

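The count of genes called against MEF (10407) stayed between 7092 and 11366 when each library was left out in turn, and between 7819 and 12214 under the other alternatives that keep the threshold. Against a 2-fold change it was 4293. The count against mESC (5013) ranged from 2021 to 10488 when each library was left out, and was 195 against a 2-fold change. Leaving out a library leaves a lone sample that is assumed to vary like the other group. With the replicate number as a replicate block, 10620 genes were called against MEF and 5719 against mESC. Deviations of libraries with the same number correlated at -0.09 between KD_control and MEF and at 0.06 between KD_control and mESC. With 2 libraries per group these values cannot tell whether libraries of equal number are linked. The planned length correction was not run, because the length column of the tables is empty. One with length estimated from the confidence bounds, chosen after seeing the data, gave 10418 calls. Of 108 counts of list members called, 9 moved by over 1.5 times under median-ratio scaling, 26 without either KD_control library, and 6 and 2 without MEF libraries 1 and 2.

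Of 253 named genes, 21 lost their call when a library was left out, each of them without a KD_control library, among them Rev1 (adjusted p = 0.14 without library 1 and 0.13 without library 2), Klf2, Cd9, Ccnd3, Col18a1, Yap1, Ncl, Smarcc1, P4ha1 and Plod2. Removing the length trend ended the calls of Ncl (-0.08), Rev3l (-0.17), Synpo2 (-0.16) and Cdkn2d (0.28). Genes that changed sign had not passed the test. Polq turned to 0.24 and Jup to 0.28 with the length trend removed. Hoxb4 turned to -0.0914 with a common sum, -0.147 with median ratios, -0.0802 without the 10 most abundant genes and -0.00142 without KD_control library 1. Col9a3 turned to -0.00971, -0.0514 and -0.00124 under the same 3 scalings. With each library left out in turn, Hoxc13 ranged from -0.195 to 0.0645 and Barx1 from -0.279 to 0.0176. The cause was not tested. The spread of each group rests on 2 libraries, and genes near 1 FPKM carry few fragments.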
